A study of Homo sapiens with 9 samples.

Results

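The nuclear genes for the subunits of the oxidative phosphorylation (OXPHOS) complexes were followed in 9 RNA-seq libraries of hTERT_RPE1, an established line of human retinal pigment epithelial cells immortalised with telomerase. Members were the genes whose symbol in the deposited count table began with NDUFA, NDUFB, NDUFC, NDUFS or NDUFV and a digit, with UQCR, with COX and a digit from 4 to 8 or with ATP5, together with SDHA, SDHB, SDHC and SDHD. Symbols ending in -AS1, or in P and a number, were left out. This took 88 of 26475 genes, of which 39 belong to complex I, 4 to complex II, 9 to complex III, 17 to complex IV and 19 to complex V. No measured value entered the choice. Since it went by name, it also took the readthrough genes NDUFC2-KCTD14 and ATP5J2-PTCD1, the UQCRH copy UQCRHL, and ATP5S and ATP5SL, which are not subunits of complex V. The 13 subunits encoded by mitochondrial DNA were not analysed here.

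Control cells were grown on fibronectin-coated glass and carried, by their titles, the empty pLKO vector, whereas their treatment label names a control shRNA. The cells called sh_PIP4K2B were grown on the same glass and carried a hairpin against PIP4K2B, a phosphoinositide kinase, with another hairpin (#1, #2 or #3) in each of the 3 libraries. Soft cells carried the Control vector and were grown on a fibronectin-coated gel of 2.3 kPa. RNA was taken after 24 h, and each group had 3 libraries. The spread within sh_PIP4K2B therefore holds the differences between hairpins, the labels do not say that Control or Soft libraries came from separate experiments, and p-values measure the spread between these libraries.

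The OXPHOS complexes sit in the inner mitochondrial membrane. Complex I (NADH dehydrogenase) and complex II (succinate dehydrogenase, also an enzyme of the TCA cycle) pass electrons to ubiquinone, complex III passes them to cytochrome c, and complex IV to oxygen. The proton gradient that complexes I, III and IV build drives ATP synthase, complex V. Most subunits are encoded in the nucleus and imported, and their promoters are known for sites of NRF1 (nuclear respiratory factor 1), ETS factors such as GABP, YY1 and the oestrogen-related receptors (ERR). The retinal pigment epithelium in the eye is a tissue with a high rate of oxidative metabolism.

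Promoters of 3 of the 5 members called in Soft against Control are shown, since the results turn on these genes. ATP5MC1 and ATP5MC2, listed under their older symbols ATP5G1 and ATP5G2, encode the same mature subunit c of ATP synthase and moved in opposite directions, and NDUFB4 encodes an accessory subunit of complex I. Each stretch is the 250 bases before the RefSeq transcription start, on the gene's strand, in GRCh38.p14: chr17:48892537-48892786 (plus strand) for ATP5MC1, chr12:53676084-53676333 (minus strand) for ATP5MC2, and chr3:120596086-120596335 (plus strand) for NDUFB4. ATP5MC2 has 3 starts in RefSeq, and the one shown is the only one whose stretch held letters searched for. Capitals mark the letters searched for on both strands, which were GCGCA and GCGC with any 1 base between them (NRF1), CCGGAAG (ETS), AANATGGC (YY1), TNAAGGTCA (ERR), and ACGTG or GCGTG (the core read by hypoxia-inducible factors).
ATP5MC1: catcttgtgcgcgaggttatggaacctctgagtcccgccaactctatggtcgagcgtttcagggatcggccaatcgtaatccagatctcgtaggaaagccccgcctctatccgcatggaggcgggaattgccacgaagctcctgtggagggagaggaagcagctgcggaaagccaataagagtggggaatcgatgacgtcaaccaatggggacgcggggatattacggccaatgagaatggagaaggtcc
ATP5MC2: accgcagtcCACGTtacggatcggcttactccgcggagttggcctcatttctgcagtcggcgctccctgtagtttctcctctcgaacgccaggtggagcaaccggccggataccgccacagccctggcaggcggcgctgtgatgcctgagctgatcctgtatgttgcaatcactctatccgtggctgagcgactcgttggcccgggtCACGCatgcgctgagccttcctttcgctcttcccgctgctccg
NDUFB4: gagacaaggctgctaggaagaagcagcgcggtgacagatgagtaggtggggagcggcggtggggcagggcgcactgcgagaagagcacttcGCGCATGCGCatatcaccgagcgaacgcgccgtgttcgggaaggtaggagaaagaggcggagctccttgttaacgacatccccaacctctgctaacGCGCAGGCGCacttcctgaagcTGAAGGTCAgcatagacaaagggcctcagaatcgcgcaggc
The NDUFB4 stretch held the NRF1 letters at 159 to 150 and at 63 to 54 bases before the start and the ERR letters at 41 to 33. The ATP5MC2 stretch held only the hypoxia core letters, at 241 to 237 and at 43 to 39 bases before the start, and the ATP5MC1 stretch held none of the letters searched. The stretches before the other ATP5MC2 starts held none of them either. That of NDUFC2-KCTD14, also called and not shown, held only the hypoxia core letters, at 71 to 67 and at 49 to 45 bases before the start.

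Over windows from 250 bases before to 50 after a start, RefSeq gave 81 starts for 68 of the 88 members and 35116 starts in all. The YY1 letters stood in 34.6% of the members' windows and in 6.58% of all windows. The NRF1 letters stood in 19.8% and 5.78%, the ETS letters in 25.9% and 10.3%, and the ERR letters in 2.47% and 0.951%. ACGTG stood in 24.7% and 21.4%, and GCGTG in 48.1% and 36.5%. The median GC content was 59.3% in the members' windows and 58.7% in all. Starts of 1 gene can overlap, and a match is a description of the letters, not a site.

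Library totals lay between 19217336 and 24020796 counts, and 13784 genes had enough counts to be tested. PIP4K2B itself was at 123, 124 and 120 CPM in Control, at 48.4, 40.9 and 36.6 CPM with hairpins #1, #2 and #3, and at 119, 122 and 127 CPM in Soft. CPM are counts scaled to a common library total with edgeR's TMM factors. The 3 hairpin libraries were all below the Control range (log2 fold change -1.54 with an SE of 0.12, adjusted p = 0.00038, edgeR's quasi-likelihood test), and in a fit of these 2 groups alone the adjusted p was 0.012. Of 13 markers of pigment epithelium 5 were tested. RPE65, TYR and TTR were at or near 0 in every library, while MITF was at 36.5 ± 2.55 CPM and KRT18 at 902 ± 31.4 CPM in Control (SD, n = 3), and KRT18 was lower in Soft (-1.31, adjusted p = 0.00014, edgeR). It was also lower with the hairpins (-1.10, adjusted p = 0.0018, edgeR), though at an adjusted p of up to 0.014 without a Control library and of 0.023 in the fit of these 2 groups alone. OTX2 was higher in Soft (1.77) and in sh_PIP4K2B (0.65), BEST1 higher in Soft at 0.719 CPM, and RDH5 lower in sh_PIP4K2B (-2.26, with an adjusted p of 0.010 without Control replicate 2 and of 0.019 in the fit of these 2 groups alone). The OTX2 call in sh_PIP4K2B and that of BEST1 did not hold when single libraries were left out (adjusted p up to 0.054 and 0.040). Of 8 immune and endothelial markers 3 were tested, and PECAM1 (4.79 CPM against 0.103 CPM) and CD14 (0.642 CPM against 0.0886 CPM) were higher in Soft, with an adjusted p for CD14 of up to 0.018 without Control replicate 1 or 3 or Soft replicate 1 or 3. No marker of muscle or testis had enough counts to be tested, and the part of these markers in the results was not tested.

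Of the 88 members, 81 were tested. The 7 others were ATP5L2 and 6 paralogues of complex IV subunits known from other tissues: COX4I2, COX6A2, COX6B2, COX7A1, COX7B2 and COX8C. Their largest count in any library was 7, and 2 of them had no count at all, which at 3 counts of a library allows up to 0.131 to 0.148 CPM. The isoforms found in most tissues carried the signal. In Control COX4I1 was at 195 ± 6.97 CPM, COX6A1 at 123 ± 1.58 CPM, COX6B1 at 80.1 ± 3.09 CPM, COX7A2 at 75.3 ± 2.79 CPM, COX7B at 60.1 ± 1.27 CPM and COX8A at 88.7 ± 3.55 CPM (SD, n = 3). None of these 6 passed the threshold in either comparison with Control. Their log2 fold changes ran from -0.20 (COX7B) to 0.17 (COX7A2) in sh_PIP4K2B and from 0.03 (COX7A2) to 0.31 (COX6B1) in Soft.

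Per length, taken over the median length of a gene's coding transcripts, the highest Control levels were those of ATP5B, the catalytic beta subunit of ATP synthase, at 439 CPM per kb in complex V, and of COX4I1 at 245 CPM per kb in complex IV. UQCRB led complex III with 209 CPM per kb, NDUFS5 complex I with 201 CPM per kb and SDHC complex II with 160 CPM per kb. The leads of UQCRB and SDHC depend on the length taken. Their canonical transcripts have 8459 and 1308 nt, and the medians used have 645 and 460 nt. All 88 members together held 0.666% to 0.681% of the CPM in Control, 0.670% to 0.695% in Soft and 0.534% to 0.749% in sh_PIP4K2B. The smallest and the largest of these 9 shares were both those of hairpin libraries.

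In Soft against Control, the question is whether a compliant substrate changes the transcripts of the respiratory chain. At an adjusted p of 0.01, 5 of the 81 tested members (6.17%) were called, against 30.6% of all tested genes. NDUFB4, ATP5G2 and NDUFC2-KCTD14 rose, where 15.8% of all genes were higher, and ATP5G1 and NDUFC2 fell, where 14.8% of all genes were lower. The median log2 fold change was 0.05 for the members and 0.01 for all genes. The median size of the change regardless of sign was 0.19 and 0.49, and 75 of 81 members changed by under 1.5-fold, as did 57.1% of all genes. The 3 Soft and 3 Control libraries did not overlap for 30 members that were higher and 22 that were lower in Soft, 52 of 81 in all, and this was so for 79.4% of all genes. These 52 members differed by a median of 0.30 on the log2 scale. Non-overlap of the tight Control and Soft groups was thus common, and more so among all genes than among the subunits. In a fit of these 2 groups alone, which leaves out the hairpins' spread, 43 members (53.1%) passed the threshold and 70.7% of all genes did, 25 of the members being higher and 18 lower. Without the library of hairpin #1, #2 or #3 the count rose from 5 to 16, 10 and 19, and the share of all genes called rose from 30.6% to 45.6%, 36.9% and 41.7%. With a correction for GC content and length 12 members were called, 7 higher and 5 lower, and 29.4% of all genes. The correction took the length and GC content of each gene's canonical transcript.

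**Figure D1:**
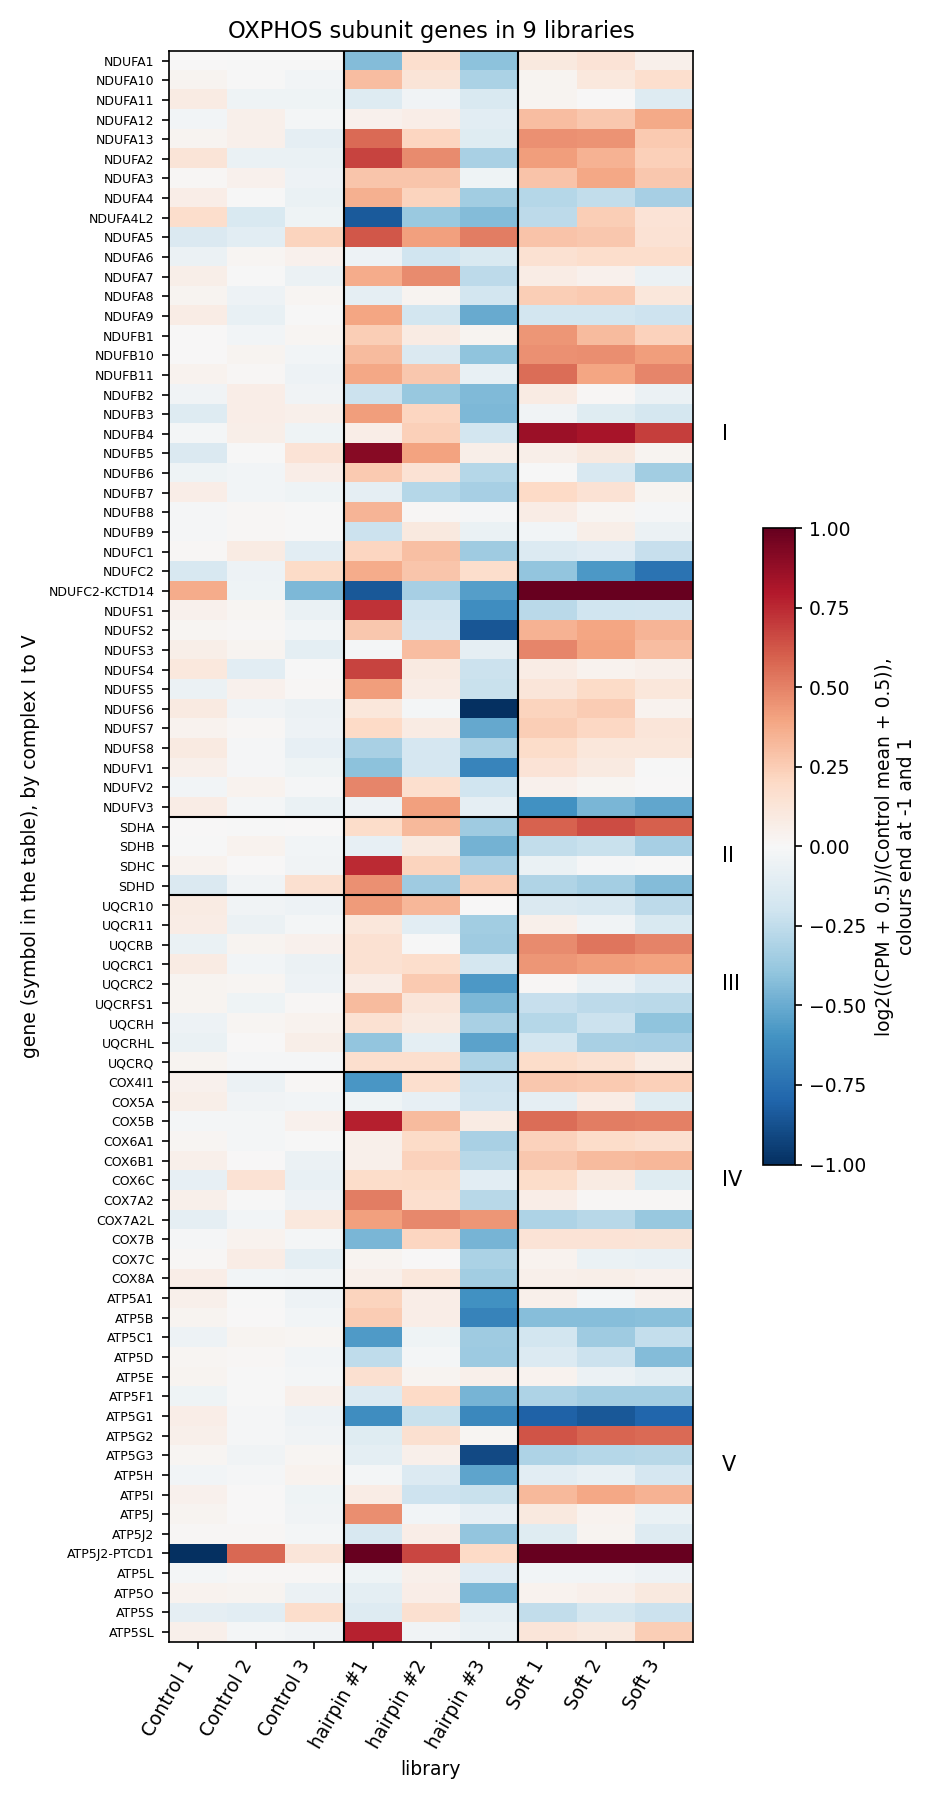
Heat map of the 81 tested members (rows, by complex I to V) in the 9 libraries (columns), coloured by log2((CPM + 0.5)/(Control mean + 0.5)) with colours ending at -1 and 1. The hairpin #3 column is blue in most rows (67 of 81 members below the Control range), while in Soft a few rows such as NDUFB4, NDUFC2-KCTD14, ATP5G1 and ATP5G2 stand out from pale neighbours.

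In complex I, 3 of the 39 members (7.69%) were called in Soft, beside 30.6% of all tested genes. The median log2 fold change of the 39 members was 0.10 there. NDUFB4 was at 50.7, 53.6 and 49.9 CPM in Control, at 53.7, 60.8 and 45.2 CPM with hairpins #1, #2 and #3, and at 93.4, 91.3 and 83.1 CPM in Soft. Every Soft library was above every other library (log2 fold change against Control 0.80, SE 0.12, adjusted p = 0.00070, edgeR), and the call passed 0.01 under every alternative fit, as did those of ATP5G1 and NDUFC2-KCTD14. At a threshold of 0.001 the calls of NDUFB4 and ATP5G1 remained in Soft, and those of NDUFC2-KCTD14, ATP5G2 and NDUFC2 did not. The promoter of this gene is the one with the NRF1 and ERR letters shown earlier. NDUFS5, a small accessory subunit, was at 105 ± 3.94 CPM in Control and 115 ± 3.57 CPM in Soft (SD, n = 3) and was not called (adjusted p = 0.46, edgeR). NDUFA4, named for complex I but bound to complex IV, was at 105 ± 4.96 CPM in Control and, with an adjusted p of 0.17 (edgeR), at 86.3 ± 2.52 CPM in Soft (SD, n = 3), and its paralogue NDUFA4L2 stayed below 1 CPM in every library, between 0.138 and 0.857 CPM.

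NDUFC2, an accessory subunit of the membrane arm, and NDUFC2-KCTD14, a readthrough transcript from nearly the same start on chromosome 11 into KCTD14, moved apart. NDUFC2 was at 62.7, 67.9 and 80.05 CPM in Control, at 91.1, 85.2 and 79.5 CPM with hairpins #1, #2 and #3, and at 53.4, 47.0 and 41.9 CPM in Soft. The Soft libraries were the lowest of the 9 (log2 fold change against Control -0.57, SE 0.13, adjusted p = 0.0064, edgeR). This call was lost when any 1 of the 3 Control libraries was left out, or Soft replicate 2 or 3, where the adjusted p was up to 0.035, and with the replicate number as a block (0.017). NDUFC2-KCTD14 was at 14.4, 10.7 and 7.95 CPM in Control, at 5.89, 8.67 and 7.37 CPM with the hairpins and at 25.6, 24.3 and 27.3 CPM in Soft. Here the Soft libraries were the highest (1.23, SE 0.22, adjusted p = 0.0015, edgeR). Of the 75-base stretches of its canonical transcript 84.4% also occur in transcripts of other genes, most often in those of NDUFC2. The share in NDUFC2 alone was not computed, and the split of reads between the 2 symbols is uncertain. Summed over both symbols, the mean CPM of the Control libraries was 81.2 ± 5.93, that of the hairpin libraries 92.6 ± 5.16 and that of the Soft libraries 73.2 ± 5.17 (SD, n = 3).

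In complex II the catalytic flavoprotein SDHA had the largest Soft value and the other 3 genes lay at or below Control. SDHA was at 116, 115 and 115 CPM in Control, at 131, 145 and 90.2 CPM with hairpins #1, #2 and #3, and at 173, 181 and 175 CPM in Soft. The 3 Soft libraries were above the other 6, yet the adjusted p was 0.0104 (log2 fold change 0.61, SE 0.16, edgeR) and so missed 0.01. Of the 75-base stretches of SDHA 68.5% occur in another annotated gene. SDHB, the iron-sulphur subunit, was at 70.9 ± 1.505 CPM in Control and 58.8 ± 2.32 CPM in Soft (-0.27, adjusted p = 0.14, edgeR). The membrane anchors SDHC and SDHD were at 73.4 ± 1.83 and 41.2 ± 4.55 CPM in Control and at 72.0 ± 1.72 and 32.0 ± 1.498 CPM in Soft (SD, n = 3), and neither was called (adjusted p = 0.93 and 0.15, edgeR). The summed CPM of the 4 genes was 301 ± 1.87 in Control and 339 ± 6.74 in Soft (SD, n = 3), and SDHA was the only 1 of them with a higher mean in Soft.

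Complexes III and IV, with 9 and 11 tested members, had no called member in Soft, where 30.6% of all tested genes were called. UQCRB, which binds ubiquinone in complex III, was at 129, 138 and 139 CPM in Control, at 150, 135 and 105 CPM with the hairpins and at 188, 196 and 190 CPM in Soft (log2 fold change 0.50, SE 0.13, adjusted p = 0.012, edgeR), with all Soft libraries above the other 6. COX7A2L, a factor that joins complexes III and IV in supercomplexes, was at 70.7, 73.8 and 81.0 CPM in Control, at 100, 105 and 102 CPM with hairpins #1, #2 and #3, and at 60.7, 61.9 and 57.7 CPM in Soft. The 3 groups did not overlap, but neither comparison with Control passed 0.01 (0.44, SE 0.09, adjusted p = 0.013 in sh_PIP4K2B and -0.32, SE 0.09, adjusted p = 0.018 in Soft, edgeR). The adjusted p in Soft lay between 0.01 and 0.02 for 7 members, SDHA, UQCRB and COX7A2L among them.

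In complex V, 2 of the 3 genes for subunit c moved in opposite directions in Soft. ATP5G1, ATP5G2 and ATP5G3 encode precursors that differ in their import sequence and give an identical mature subunit c, the protein of the rotor ring. ATP5G1 was at 69.3, 65.7 and 63.8 CPM in Control, at 42.9, 56.7 and 42.2 CPM with hairpins #1, #2 and #3, and at 37.6, 36.7 and 38.0 CPM in Soft. Both other groups lay below the Control range, and the call was made in Soft (log2 fold change -0.82, SE 0.13, adjusted p = 0.00073, edgeR) and not in sh_PIP4K2B (-0.49, SE 0.13, adjusted p = 0.029, edgeR). The direct comparison of Soft with sh_PIP4K2B did not pass either (-0.34, SE 0.13, adjusted p = 0.053, edgeR). ATP5G2 was at 109, 104 and 103 CPM in Control, at 96.9, 118 and 107 CPM with the hairpins and at 163, 158 and 156 CPM in Soft, where every library was above the other 6 (0.59, SE 0.10, adjusted p = 0.0012, edgeR). With the GC and length correction its log2 fold change was 0.40, and with the replicate block added its adjusted p was 0.016. It passed 0.01 under the other alternative fits. ATP5G3 had the highest CPM of the set in Control, at 144, 139 and 144 CPM. It was at 133, 147 and 76.1 CPM with the hairpins and at 115, 117 and 118 CPM in Soft (-0.29, SE 0.20, adjusted p = 0.27, edgeR).

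The summed level of the 3 subunit c genes was 314 ± 7.18 CPM in Control and 313 ± 2.29 CPM in Soft, and 273 ± 48.3 CPM in sh_PIP4K2B (SD, n = 3). ATP5G2 made up 33.5 ± 0.42% of it in Control and 50.8 ± 0.748% in Soft, ATP5G1 21.1 ± 0.511% and 11.97 ± 0.197%, and ATP5G3 45.3 ± 0.925% and 37.2 ± 0.661% (SD, n = 3). Per length the share of ATP5G2 was 27.4% in Control and 44.5% in Soft, and that of ATP5G1 30.6% and 18.6%. The summed CPM was thus as high in Soft as in Control while ATP5G1 and ATP5G2 were called in opposite directions and ATP5G3 was not called. The median coding transcripts of ATP5G1, ATP5G2 and ATP5G3 differ in length (539, 954 and 842 nt). Their canonical transcripts have 646, 632 and 2587 nt, so the shares per length depend on the length taken. A sum of CPM is not a sum per length, so an equal number of subunit c transcripts is not shown. ATP5B was at 772 ± 13.8 CPM in Control and 576 ± 0.961 CPM in Soft (SD, n = 3), with no overlap, but at 921, 809 and 486 CPM with hairpins #1, #2 and #3, and the adjusted p in Soft was 0.11 (log2 fold change -0.42, SE 0.20, edgeR).

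**Figure D2:**
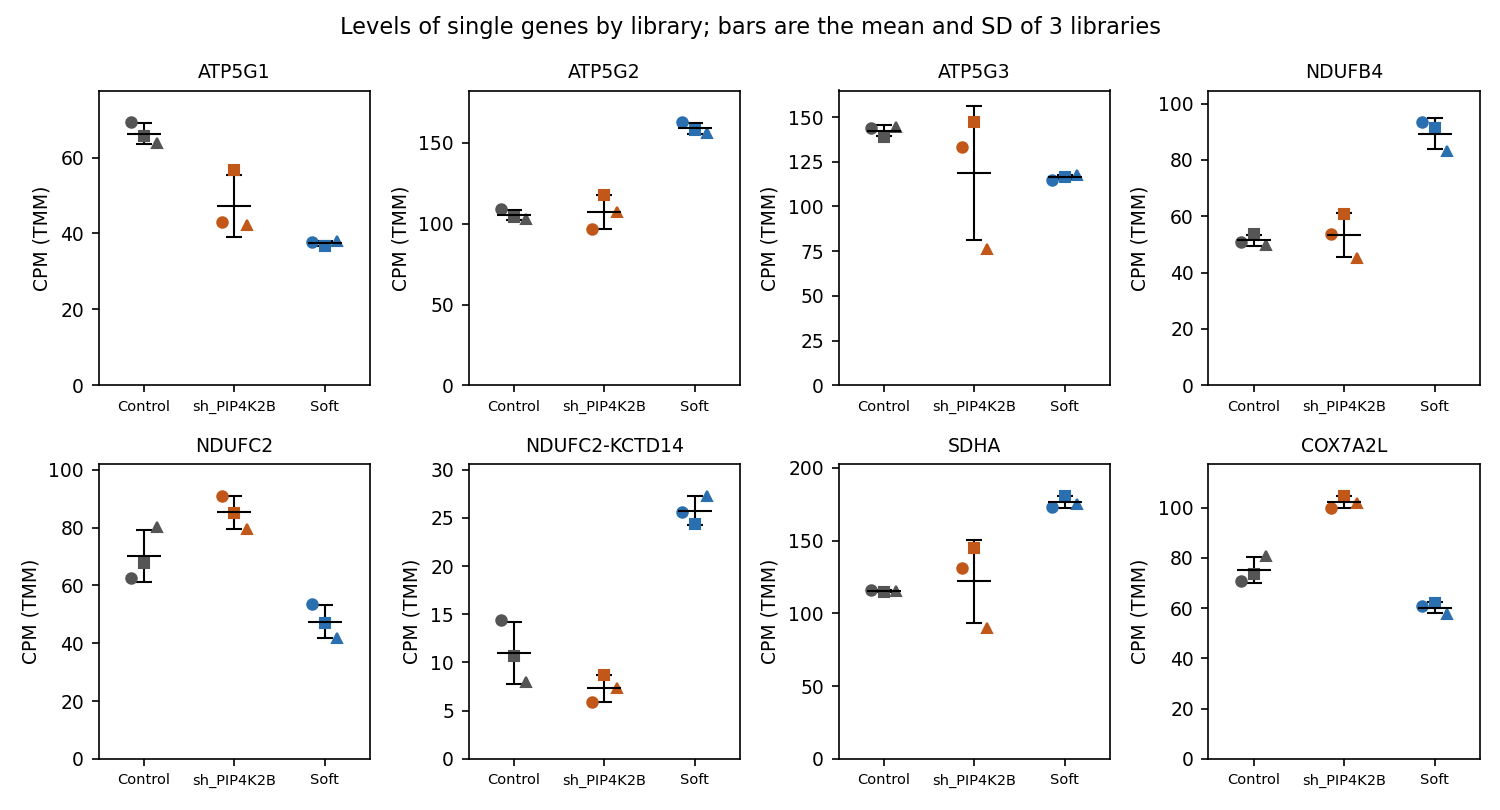
CPM of 8 genes in each library (circle, square and triangle for replicate or hairpin 1, 2 and 3), with horizontal bars for the mean and whiskers for the SD of 3 libraries. On the vertical axes, which start at 0, Soft libraries lie above all others for ATP5G2, NDUFB4, NDUFC2-KCTD14 and SDHA and below all others for ATP5G1, NDUFC2 and COX7A2L.

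By complex, the median log2 fold change in Soft was 0.10 for complex I, -0.15 for II, -0.06 for III, 0.06 for IV and -0.06 for V. The summed CPM was 2097 ± 23.1 in Control and 2263 ± 65.2 in Soft for complex I, 815 ± 10.6 and 881 ± 24.1 for III, 949 ± 11.99 and 1039 ± 18.4 for IV, and 2575 ± 32.3 and 2324 ± 22.9 for V (SD, n = 3). Single abundant genes weigh most in such sums. Most of the rise of complex III was that of UQCRB and most of the fall of complex V that of ATP5B, and neither gene was called. In complex III the log2 fold change was negative for 6 of 9 members. The sum of all members was 6736 ± 74.2 CPM in Control and 6846 ± 128 CPM in Soft. In bulk RNA, fewer cells with a transcript and less of it per cell cannot be told apart.

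For sh_PIP4K2B against Control, which asks whether loss of PIP4K2B reaches these genes, no member was called by edgeR, against 5.54% of all tested genes. At an unadjusted p of 0.05, 12 of the 81 (14.8%) passed, against 33.2% of all genes. DESeq2 called 3 members, 2 higher and 1 lower, and 13.5% of all genes. The members' median log2 fold change was -0.01 (all genes 0.05), with 0.07 for complex I, 0.12 for II, -0.01 for III, -0.01 for IV and -0.09 for V. The hairpin libraries did not overlap Control for 4 members that were higher and 8 that were lower, 12 of 81, where this was so for 34.1% of all genes. Changes of under 1.5-fold were seen for 78 of 81 members and for 76.9% of all genes. COX7A2L and ATP5G1, given earlier, were among those that did not overlap.

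The group mean hides a difference between the hairpins. The median member stood at 0.15 and 0.09 on the log2 scale relative to the Control mean with hairpins #1 and #2, and at -0.31 with hairpin #3, whereas the median of all genes was between 0.01 and 0.02 in the 3 libraries. With hairpin #3, 67 of 81 members were below the Control range and 6 above it. With hairpin #1, 25 were below and 48 above, and with hairpin #2, 18 and 50. Hairpin #3 gave the lowest of the 3 hairpin values for 67 members and the highest for 0, while it was lowest for 33.2% and highest for 34.3% of all genes. The lower level ran through all complexes, with medians of -0.26 for I, -0.34 for II, -0.35 for III, -0.27 for IV and -0.36 for V. The members summed to 7495 CPM with hairpin #1, to 7167 CPM with #2 and to 5340 CPM with #3.

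This was a difference between single libraries, with 1 library per hairpin and no replicate of any of them, so it has no test. PIP4K2B was lowest with hairpin #3 as well (36.6 CPM). Cytosolic ribosomal protein genes, which are no mitochondrial list, had medians of -0.53, 0.36 and -0.37 with hairpins #1, #2 and #3, and mitochondrial ribosomal protein genes 0.16, 0.05 and -0.22. Their part in the result was not tested. Without hairpin #3 the members' median was 0.14 and 3 members were called, all higher. Without #1 or #2 it was -0.07, with 2 called (1 higher and 1 lower) and 5 called (1 higher and 4 lower). Of all genes 12.7% were called without hairpin #3, 11.9% without #1 and 14.4% without #2, against 5.54% with all 3. The median SD of a member over the hairpin libraries was 0.26 on the log2 scale, against 0.05 in Control and 0.06 in Soft.

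**Figure D3:**
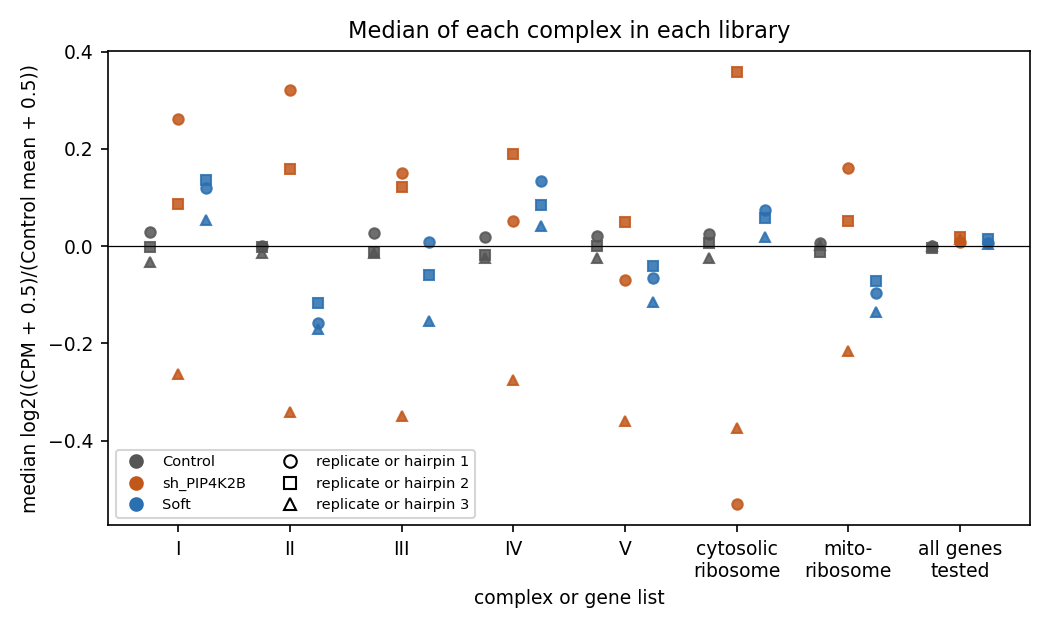
Median log2((CPM + 0.5)/(Control mean + 0.5)) of the members of each complex, of the cytosolic and mitochondrial ribosomal protein genes and of all tested genes, with 1 point per library. Hairpin #3 (orange triangles) is below 0 for every complex, from -0.26 to -0.36, while all-gene medians lie near 0 and Soft libraries (blue) keep within 0.17 of it.

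The 2 comparisons with Control share their Control libraries, so Soft was also set directly against sh_PIP4K2B. Here 9 of 81 members (11.1%) were called, 6 higher and 3 lower in Soft, and 30.0% of all genes were. ATP5G2, NDUFB4 and NDUFC2-KCTD14 were higher by 0.57, 0.75 and 1.82 on the log2 scale, and COX7A2L and NDUFC2 lower, with values of -0.77 and -0.85. COX7A2L was the member above Control in all hairpin libraries and below it in all Soft libraries (SE 0.09, adjusted p = 0.00023 for the difference, edgeR). With the GC and length correction the difference was -0.37 and its adjusted p 0.010, and 0.028 with the replicate block added, and neither passed. UQCRB was called as well (0.55, SE 0.13, adjusted p = 0.0075, edgeR), and its difference was 0.92 with the GC and length correction. That correction took the canonical transcript, which has 8459 nt for UQCRB, whereas its median coding transcript has 645 nt. ATP5I, NDUFS8 and NDUFV3, named after their values were seen, were the other 3 (0.47, 0.41 and -0.64). With the GC and length correction the NDUFS8 difference was 0.03, with an adjusted p of 0.79 (edgeR). UQCRB, ATP5I, NDUFS8 and NDUFV3 lost the call when any single Control or Soft library was left out, with adjusted p of up to 0.032, 0.029, 0.036 and 0.028, whereas NDUFB4, NDUFC2, NDUFC2-KCTD14 and COX7A2L kept it without each library, and ATP5G2 missed it without Soft replicate 1 (0.011). ATP5G2 also missed it in the fit of these 2 groups alone (0.015) and with the GC and length correction, where the difference was 0.33 and the adjusted p 0.010, and 0.033 with the replicate block added.

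Other genes of the pathway are given next to the subunits. Of 56 assembly factors, proteins that build the complexes without staying in them, 21 (37.5%) were called, 5 higher and 16 lower, in Soft, with a median log2 fold change of -0.19, beside 30.6% of all genes. Those of complex IV gave 12 of 24 (3 higher, 9 lower, median -0.28), those of complex I 5 of 17 (1 higher, 4 lower), of III 2 of 6 (both lower), of V 2 of 5 (1 each way) and of II 0 of 4. With 1 Control or Soft library left out the count of 21 was 11 to 13, with 1 higher, and that for complex IV 6 or 7, with 0 higher, and with the replicate block they were 13 and 7. In sh_PIP4K2B 0 of 56 were called, with 10 at an unadjusted p of 0.05 and 1 called by DESeq2, and 4 were called without hairpin #2 and 4 without hairpin #3.

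For complex IV, COA7 fell from 25.1 ± 0.926 to 11.7 ± 0.981 CPM, SCO1, which delivers copper, from 43.1 ± 2.24 to 21.3 ± 2.14 CPM, and LRPPRC, which stabilises mitochondrial mRNAs, from 148 ± 2.53 to 75.4 ± 3.22 CPM (SD, n = 3), with log2 fold changes of -1.10, -1.02 and -0.98 (adjusted p = 0.00070, 0.00020 and 0.0010, edgeR). For complex I, NDUFAF4, NDUFAF8 (listed as C17orf89) and NDUFAF2 fell, with -1.23, -0.87 and -0.68. For complex III, LYRM7 and BCS1L, which both serve the insertion of the Rieske protein, fell with -1.13 and -0.57. For complex V, TMEM70 fell with -0.89 and FMC1, listed as C7orf55, rose from 2.65 ± 0.203 to 8.08 ± 0.910 CPM (SD, n = 3), a log2 fold change of 1.61 (adjusted p = 0.00078, edgeR). BCS1L lost its call when any single Control or Soft library was left out (adjusted p up to 0.031), NDUFAF8 without Soft replicate 2 (0.011) and NDUFAF2 without Soft replicate 3 (0.010). NDUFAF4 and NDUFAF2 also missed the threshold with the GC and length correction and the replicate block together (0.015 and 0.019), and BCS1L was at -0.89 with that correction.

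Of 15 tested regulators of mitochondrial biogenesis, 5 (33.3%) were called in Soft, all lower, with a median of -0.30, beside 30.6% of all genes in either direction and 14.8% lower. With 1 Control or Soft library left out the count was 3 or 4. PPARGC1B, a coactivator of the PGC-1 family, fell from 1.25 ± 0.155 to 0.227 ± 0.116 CPM (-2.42, adjusted p = 0.0027, edgeR), PPRC1, of the same family, from 118 ± 6.53 to 68.4 ± 3.20 CPM (-0.78, adjusted p = 0.00080, edgeR) and TFAM, which packs and transcribes mitochondrial DNA, from 36.6 ± 4.86 to 21.3 ± 1.87 CPM (-0.78, adjusted p = 0.00093, edgeR; SD, n = 3 throughout). TFAM did not pass with the GC and length correction (-0.38, adjusted p = 0.025, edgeR), with which PPRC1 was at -1.19, and PPARGC1B did not without Control replicate 2 or 3 or Soft replicate 1 or 2 (up to 0.013). NRF1 was at 12.7 ± 0.295 CPM in Control and 15.4 ± 0.771 CPM in Soft (adjusted p = 0.059, edgeR), and ESRRA, an ERR, at 36.4 ± 1.03 and 33.0 ± 1.20 CPM (adjusted p = 0.29, edgeR; SD, n = 3). GABPB1, GABPA and YY1 were named after their values were seen. GABPB1, of GABP, was called lower in Soft, at 13.4 ± 1.27 against 22.8 ± 1.37 CPM (-0.77, adjusted p = 0.0039, edgeR; SD, n = 3). GABPA and YY1 were not called in Soft (adjusted p = 0.91 and 0.44, edgeR). In sh_PIP4K2B YY1 was at 0.44 and missed the threshold (adjusted p = 0.034, edgeR). PPARGC1A, encoding PGC-1 alpha, had no count in Control and at most 0.692 CPM in any library. In sh_PIP4K2B none of the 15 was called by edgeR, 4 were at an unadjusted p of 0.05 and DESeq2 called 1.

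Of 72 mitochondrial ribosomal protein genes 12 (16.7%) were called in Soft, all lower, beside 30.6% of all genes in either direction and 14.8% lower. The list, here and in the figures, is a part of these genes, since its name filter left out MRPL symbols with a single-digit number. With 1 Control or Soft library left out the count was 2 to 6, the lowest being without Soft replicate 3, and without a hairpin library 16 to 22. The median log2 fold change was -0.10, and it was 0.0038 when libraries were scaled by total counts only, which put the median of all genes at 0.12. MRPS25 fell from 43.2 ± 1.59 to 21.1 ± 1.10 CPM, MRPL12 from 94.5 ± 2.55 to 52.6 ± 2.96 CPM and MRPL17 from 83.4 ± 0.746 to 48.9 ± 3.27 CPM (SD, n = 3), and MRPL17 missed the threshold without Soft replicate 2 or 3 (0.012). Of 79 cytosolic ribosomal protein genes 0 were called in either comparison with Control by edgeR, with 3 and 4 at an unadjusted p of 0.05, and DESeq2 called 0 in sh_PIP4K2B and 1 in Soft. Without hairpin #2, however, 27 of them were called lower in sh_PIP4K2B, with a median of -0.44, and the fit of Soft and Control alone called 41, 26 higher and 15 lower. Of 6 further subunits and carriers outside the naming rule, cytochrome c (CYCS), which carries electrons from complex III to IV, fell from 138 ± 17.7 to 58.3 ± 2.12 CPM in Soft (-1.24, adjusted p = 0.00013, edgeR), and the other 5 were not called.

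**Figure D4:**
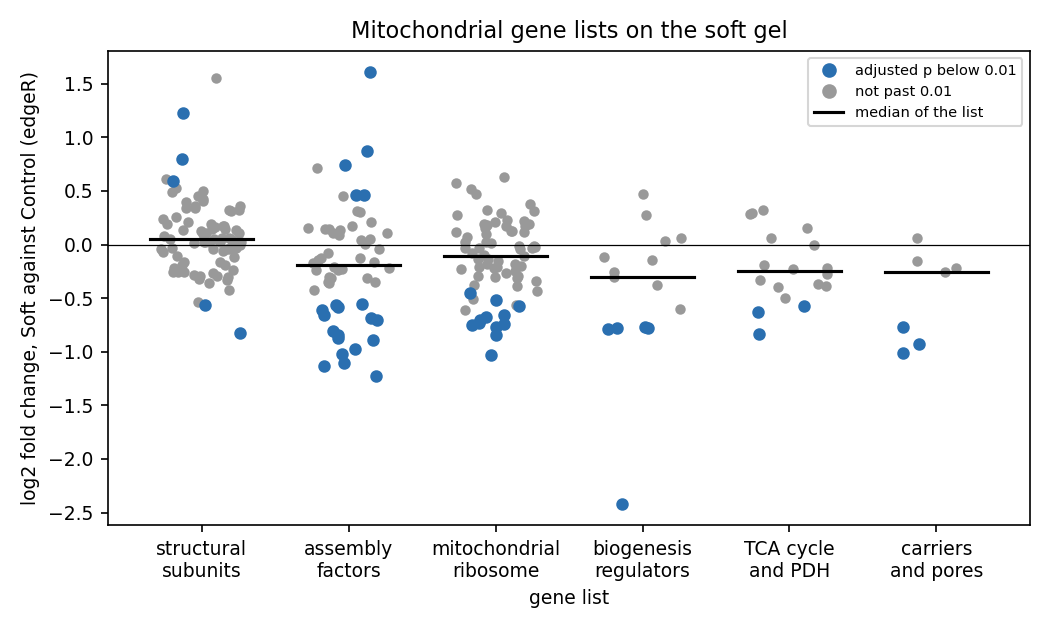
Log2 fold changes of Soft against Control (edgeR) for 81 structural subunits, 56 assembly factors, 72 mitochondrial ribosomal protein genes, 15 biogenesis regulators, 18 genes of the TCA cycle and the pyruvate dehydrogenase complex (PDH) and 7 carriers and pores, 1 point per gene, blue where the adjusted p was below 0.01, with a black line at each median. The subunits crowd around 0 with 5 blue points, while blue points of the other lists lie mostly below 0.

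Enzymes that feed the chain moved in part. Of 18 TCA cycle and PDH genes, 3 (16.7%) fell in Soft, where 14.8% of all genes did: IDH3A (-0.84), DLAT (-0.63) and FH (-0.57). DLAT missed the threshold with the GC and length correction and the replicate block together (0.018). In sh_PIP4K2B IDH2, the mitochondrial NADP-dependent isocitrate dehydrogenase, fell from 87.7 ± 1.65 to 45.2 ± 11.3 CPM and OGDH from 154 ± 3.11 to 94.7 ± 12.5 CPM (SD, n = 3), log2 fold changes of -0.96 and -0.70 (adjusted p = 0.0056 and 0.0051, edgeR). PDK2, a kinase that switches PDH off, was at 11.1, 9.44 and 10.1 CPM in Control, at 14.1, 24.5 and 21.9 CPM with hairpins #1, #2 and #3, and at 56.2, 50.9 and 52.1 CPM in Soft. It rose in both comparisons (0.98, adjusted p = 0.0094 in sh_PIP4K2B and 2.38, adjusted p = 2.7e-05 in Soft, edgeR). PDK4 and PDK3 were called higher in Soft at levels of 0.626 and 1.06 CPM, and the phosphatase PDP1 was higher in sh_PIP4K2B (0.71, adjusted p = 0.0062, edgeR). Of 7 carriers and pores, VDAC2, VDAC1 and the ADP/ATP carrier SLC25A4 fell in Soft (-1.01, -0.93 and -0.77), where 14.8% of all genes did. SLC25A4 also fell in sh_PIP4K2B (-0.58, adjusted p = 0.0048, edgeR). Of 12 genes responding to hypoxia 6 were called in Soft, beside 30.6% of all genes. The 3 that rose included VEGFA (3.08) and NDRG1 (2.21), where 15.8% of all genes were higher. The 3 that fell included HIGD1A (-1.005, and -0.64 with the GC and length correction), where 14.8% of all genes were lower. VEGFA was also higher in sh_PIP4K2B (0.80, adjusted p = 0.0053, edgeR). The calls of IDH2, OGDH, PDK2, PDP1, SLC25A4 and VEGFA in sh_PIP4K2B were lost in the fit of 2 groups alone and when any single Control or Soft library was left out, with adjusted p of up to 0.038, 0.041, 0.054, 0.048, 0.047 and 0.037. In Soft those of FH, PDK3 and PDK4 were lost when any single one of these was left out (up to 0.031, 0.033 and 0.042).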

How the data were processed

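RNA-seq of hTERT_RPE1 cells was analysed in 3 Control, 3 sh_PIP4K2B and 3 Soft libraries. The authors prepared stranded mRNA libraries and, per the submitters' processing notes, used STAR and Salmon with GRCh38/hg38. They deposited 1 table of estimated counts per gene, not normalised and not pooled. The annotation used for counting is not given in the sources used here. After rounding to whole numbers, all 9 libraries entered 1 model in edgeR 4.0.16 (R 4.3.3) with TMM factors, filterByExpr and the quasi-likelihood F test. P-values were adjusted by Benjamini-Hochberg over the 13784 tested genes, and 0.01 was the threshold. Standard errors (SE) were derived from the F statistic. All 88 members matched GENCODE or RefSeq, 19 by an older symbol. A script was tested on simulated data first. Depth, from 19217336 to 24020796 counts, puts 3 counts of a library at 0.131 to 0.148 CPM, and such floors cover counting error only.

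The members, gene lists and alternatives were chosen with earlier results of these data known. Lists are described by counts and medians, without a set test. Named were PIP4K2B, members called against Control, the 4 SDH genes, paralogue groups, the highest member per length of each complex, PPARGC1A, NRF1, TFAM and ESRRA, and of every other list up to 3 called genes with the largest changes in each comparison with Control. Alternatives were all genes unfiltered, a minimum of 10 counts in each library, library-size or upper-quartile scaling, DESeq2 1.42.0, the 2 groups alone, the replicate number as a block, a GC and length correction, both together, each library left out in turn, thresholds of 0.05 and 0.001, and other borders of the complexes.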

Additional observations from a re-analysis of the deposited data

Results flagged for a closer look

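The direct comparison of Soft with sh_PIP4K2B tests whether the difference from Control was the same in both groups, and 9 of 81 members (11.1%) differed by it at an adjusted p of 0.01 (edgeR), beside 30.0% of all genes. The log2 difference, Soft minus sh_PIP4K2B, was 1.82 for NDUFC2-KCTD14, 0.75 for NDUFB4, 0.57 for ATP5G2, 0.55 for UQCRB, 0.47 for ATP5I and 0.41 for NDUFS8. It was -0.85 for NDUFC2, -0.77 for COX7A2L and -0.64 for NDUFV3. The calls of UQCRB, ATP5I, NDUFS8 and NDUFV3 were lost when any single Control or Soft library was left out, and with the GC and length correction NDUFS8 was at 0.03. In COX7A2L the 3 hairpin libraries were above and the 3 Soft libraries below Control.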

How the results depend on the processing

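Scaling, low-count filters and the hairpin libraries set how many members were called. In sh_PIP4K2B the count of 0 became 1 with library size only, 3 with DESeq2 and 4 at a threshold of 0.05, and 0 to 5 with 1 library left out (2, 5 and 3 without hairpin #1, #2 and #3). In Soft the count of 5 became 9 with at least 10 counts in every library, 10 with library size only, 11 with the upper quartile, 12 with the GC and length correction, 9 with that correction and the replicate block, 43 with the 2 groups alone and 13 with DESeq2, 19 and 2 at thresholds of 0.05 and 0.001, and 4 to 19 with 1 library left out. In Soft against sh_PIP4K2B the count of 9 became 4 with the 2 groups alone, 16 with DESeq2, 21 and 3 at 0.05 and 0.001, and 4 to 19 with 1 library left out. The members' median in Soft was 0.16 with library size only and 0.10 with the upper quartile, and 0.0126 to 0.0527 with 1 library left out. Library size only moved the median of all genes to 0.12 in Soft and 0.14 in sh_PIP4K2B. The medians ran from -0.07 to 0.14 in sh_PIP4K2B and from -0.05 to 0.16 in Soft against sh_PIP4K2B with 1 library left out.

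Values of members that were not called changed sign under some settings. With the GC and length correction, alone and with the block, COX8A was at -0.19 and -0.19, NDUFA4L2 at -0.29 and -0.34 and NDUFS8 at -0.23 and -0.23 in Soft, and NDUFB4 at -0.0015 and -0.0075 in sh_PIP4K2B. SDHC in Soft was at 0.079 with library size only and 0.027 with the upper quartile. With 1 library left out NDUFA4L2 ran from -0.078 to 0.327 in Soft, and in sh_PIP4K2B ATP5G2 ran from -0.049 to 0.092, NDUFB4 from -0.057 to 0.153, SDHA from -0.061 to 0.255, SDHB from -0.269 to 0.006, SDHC from -0.030 to 0.510 and SDHD from -0.024 to 0.361. The causes were not tested. Of 14 calls of members, 6 passed 0.01 under every alternative fit, and 4 of these also passed 0.001.

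Same-numbered libraries did not deviate together from their group means (correlations from -0.12 to 0.04), and no pairing by number was seen. These deviations hold the hairpin differences and the GC trend within Control. The check therefore cannot tell whether same-numbered samples came from 1 experiment. With the replicate number as a block 0, 4 and 6 members were called in sh_PIP4K2B, in Soft and between them. Within Control the expression ratio correlated with GC content at 0.48, -0.05 and -0.44 (Spearman, across 13411 genes), and the 3 Soft libraries at 0.30 to 0.33. Hairpin effects rest on 1 library each. Short reads shared between readthrough genes, paralogues and their neighbours limit NDUFC2, NDUFC2-KCTD14, SDHA and UQCRHL, among other members. The shared part of the 75-base stretches was larger than in UQCRHL for ATP5J2-PTCD1, NDUFV2, NDUFA13, NDUFA7, NDUFB8, NDUFA11 and ATP5O.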
